A study of Mus musculus with 46 samples.

Results

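The comparison described here sets 11 ovarian follicles taken 8 h after hCG against 10 taken 4 h after it, out of 46 follicles in the whole mouse series. The members were set by their labels and not by expression values, though earlier results of these data were known. They are all libraries of batch 1 whose plate position and title give 8 h (plate 1) or 4 h (plate 2). The 2 times were on different plates, so that time and plate are the same split, and a difference of plate cannot be told apart from a difference of time anywhere below. Each library was made from polyadenylated RNA of a single follicle. All 21 follicles came from CD-1 mice, an outbred stock, and had grown for 8 days in alginate in medium with follicle-stimulating hormone; no mutant allele or drug is given for either group. On that day they were freed from the gel and moved to medium with 1.5 IU/ml hCG (human chorionic gonadotropin), 10 ng/ml EGF, 10 mIU/ml recombinant follicle-stimulating hormone and 10% serum, so both groups carried hCG, EGF and serum for 4 h or 8 h. A follicle in culture has no blood supply and no circulating leukocytes. The labels do not tie follicles to animals, so a p-value here reflects variation among follicles, not among mice. No follicle kept to the same times without hCG was analysed here. The 10 follicles of batch 1 at 1 h, which shared plate 1 with the 8 h follicles, are given beside the results as levels only.

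A mature follicle is an oocyte with its cumulus cells inside layers of mural granulosa cells, wrapped in theca cells. hCG acts on the receptor for luteinizing hormone on granulosa and theca cells, and granulosa cells then release EGF-like ligands that carry the signal to the cumulus. Early genes such as the Egr and Fos families come on first, then the genes of cumulus expansion, prostaglandin production and the progesterone receptor that are needed for rupture, and finally the granulosa cells leave the cell cycle and turn into progesterone-producing luteal cells. The step from 4 h to 8 h falls between these programs, and the comparison asks which of them were falling and which were rising in that window.

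The total count per library ran from 241442 to 3284746 at 4 h and from 714844 to 2667129 at 8 h, and its mean did not differ between the times by more than the spread (permutation test, two-sided, adjusted p = 0.752 over 11 library measures). Mitochondrial genes took 9.27% ± 1.08 of counts in the 4 h libraries (SD, n = 10) and 9.78% ± 0.848 in those at 8 h (SD, n = 11; permutation test, adjusted p = 0.526). In a principal component analysis the first component, with 38.6% of the variance, had all 4 h libraries below 0 and all 8 h libraries above it. The second component, with 13.7%, set 4 h replicate 10 apart, the library with the lowest total and with a count in 8964 genes against 11562 to 13785 in the others. A further library, 8 h replicate 4, stood apart in some genes as described below. Without both of these libraries 3765 genes were called, against 3758 with them.

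Markers showed what the libraries held. Inha and Inhba, granulosa genes that encode inhibin and activin subunits, gave 371745 and 127443 counts at 4 h and 263717 and 19232 at 8 h. The 12 granulosa markers together made 14285 to 37084 CPM (counts per 1000000 counts) at 4 h and 10107 to 21429 at 8 h (permutation test, adjusted p = 0.000935). Most of these counts came from Inha and Inhba, so the sum mainly follows these genes. Of the 7 granulosa markers that could be tested 3 fell (42.9%), 1 rose (14.3%, Gata4) and 3 were not called. Over all genes tested 26.1% fell and 23.1% rose. Oocyte markers were near the floor: the 30 oocyte markers summed to 6.36 to 260 CPM at 4 h and 16.1 to 154 at 8 h, 2 of them could be tested, neither was called, and Ddx4 was at 0 counts in every library. The 19 theca and stroma markers summed to 386 to 4862 CPM at 4 h and 88.7 to 4404 at 8 h (permutation test, adjusted p = 0.323), with most counts from Star, which granulosa cells also express after hCG, and the collagen gene Col3a1. The theca markers Cyp17a1 and Insl3, too low for the test, gave 77 and 107 counts in all at 4 h, and 24 and 27 at 8 h. Of the 8 theca and stroma markers that could be tested 1 rose (12.5%), 1 fell (12.5%) and 6 were not called. Smooth muscle markers were at 449 to 1669 CPM at 4 h and fell to 63.3 to 423 at 8 h (permutation test, adjusted p = 0.00011, from the smallest p the resamples can give), mostly counts of Acta2, while Myh11 and Des had at most 9 counts per group. The summed endothelial, leukocyte and surface epithelium markers gave no difference that passed the test (adjusted p = 0.752, 0.752 and 0.473). In whole follicles, fewer cells of a type and less RNA per cell cannot be told apart.

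Expression changed widely between the 2 times. Of 7636 genes tested, 3758 (49.2%) were called at an adjusted p under 0.05 (edgeR quasi-likelihood F test, Benjamini-Hochberg), with 1767 (23.1%) higher and 1991 (26.1%) lower at 8 h. A change of at least 2-fold was reached by 573 of the rises (7.5% of the genes tested) and 703 of the falls (9.21%). For 260 genes (3.4%) every 8 h library lay above every 4 h library, and for 474 (6.21%) every 8 h library lay below. The split between rises and falls differed between settings: 47.0% of the called genes were higher at 8 h with TMM, 52.1% with RLE size factors on the same counts and genes, and 53.1% with DESeq2. With limma on the authors' TPM (transcripts per 1000000), where the scale, the test and the genes tested (10831) all differed, 57.8% of 4123 called genes were higher, and the median of all genes tested was 0.13. The shares of rises and falls with TMM, 23.1% and 26.1%, are the background for each count of a gene list below, and 0 is close to the median log2 change over all genes tested, which was -0.01. Throughout, levels of genes are CPM after scaling by TMM factors, and each change is log2 of 8 h over 4 h with its standard error. Gene positions are those of the whole gene in GENCODE M21 on GRCm38.

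**Figure D1:**
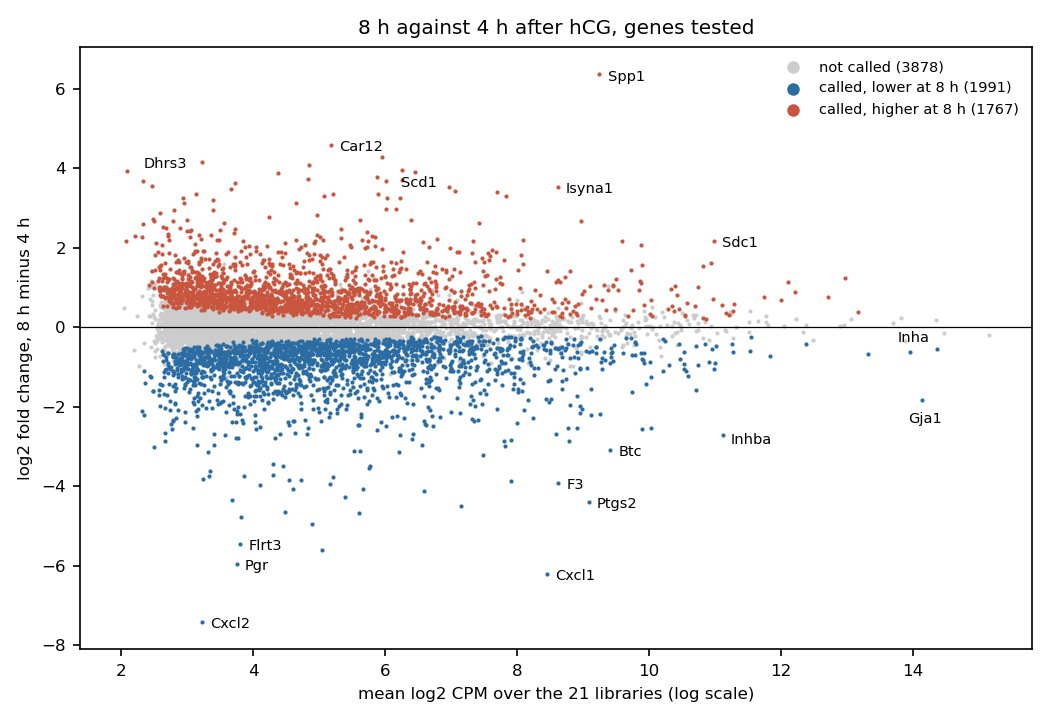
Each point is 1 of the 7636 genes tested, with its mean log2 CPM over the 21 libraries on the x axis and its log2 fold change (8 h minus 4 h) on the y axis. The falls reach further than the rises, to -7.40 for Cxcl2, while Spp1 at 6.37 stands above all other rises.

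The EGF-like ligands, which pass the hCG signal from mural granulosa to cumulus cells by activating the EGF receptor, were far lower at 8 h. Btc (chr5:91357261-91402994, - strand), betacellulin, lay between 752 and 4241 CPM at 4 h with a median of 2573, and between 125 and 357 at 8 h with a median of 284. No 8 h follicle reached the lowest 4 h follicle, and the change was -3.08 ± 0.29 (adjusted p = 1.49e-08). Areg, amphiregulin, ranged from 30.6 to 2052 CPM at 4 h (median 442) and from 9.00 to 78.4 at 8 h (median 30.9), a change of -4.11 ± 0.58 with overlapping groups (adjusted p = 5.51e-06). Ereg, epiregulin, fell by 2.99 ± 0.64 (adjusted p = 0.000572), from a median of 782 to 142 CPM, again with overlap. At 1 h the medians of Btc, Areg and Ereg were 1.15, 8.74 and 25.3 CPM, so that for these ligands the 4 h follicles held the highest level of the 3 times. Per length of transcript, on the TPM scale, Btc was the most abundant of these ligands at 4 h, with a median of 1914 TPM against 500 for Areg and 258 for Ereg. Across the list of EGF ligands and receptors, 2 of 8 tested genes rose and 3 fell. These shares, 25% and 37.5%, compare with 23.1% and 26.1% of all genes tested. The rises were Erbb2, a coreceptor, up by 0.70 ± 0.18 (adjusted p = 0.00287) and Adam10, a protease that sheds EGF-like ligands from the cell surface, up by 0.40 ± 0.10 (adjusted p = 0.00206).

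The genes of cumulus expansion did not move together. Has2 makes hyaluronan, the backbone of the expanded cumulus matrix, and was at 83.9 to 438 CPM at 4 h (median 220.4) and at 0.733 to 64.8 at 8 h (median 15.6). The groups did not overlap and the change was -3.54 ± 0.47 (adjusted p = 2.65e-06). Tnfaip6, which links proteins to hyaluronan, fell by 2.52 ± 0.51 (adjusted p = 0.000322) from a median of 1219.9 to 269 CPM. Ptx3, the pentraxin that organizes the same matrix, was measured at medians of 44.6 and 56.0 CPM and was not called (0.37 ± 0.42, adjusted p = 0.489), while at 1 h its highest follicle had 1.58 CPM. Vcan, versican, a proteoglycan that binds hyaluronan, rose by 1.57 ± 0.46 (adjusted p = 0.0082), from a range of 154 to 1397 CPM at 4 h to one of 359 to 5874 at 8 h. Adamts1, the protease that cleaves versican, ranged from 303 to 1028 CPM at 4 h and from 102 to 3238 at 8 h. It missed the threshold (1.03 ± 0.47, adjusted p = 0.0744) and passed it without 8 h replicate 1, 3 or 4 (adjusted p = 0.041, 0.0251 and 0.0319). With every 8 h follicle kept it passed under DESeq2 (1.08, adjusted p = 0.0363). It also passed in edgeR fits with 31 libraries of batch 1 (adjusted p = 0.0438) or all 46 libraries (adjusted p = 0.00792). In 25 of 32 alternative settings it stayed uncalled.

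Spp1 (chr5:104435118-104441050, + strand), osteopontin, a secreted phosphoprotein that binds integrins and CD44, had the largest rise of all genes tested. It lay between 35.3 and 123 CPM at 4 h (median 57.0) and between 2829.9 and 8052 at 8 h (median 4815), against a median of 3.40 at 1 h. The lowest 8 h follicle was far above the highest 4 h follicle, and the change was 6.37 ± 0.30 (adjusted p = 7.41e-13). On the TPM scale its median went from 57.8 to 4916. Of 9 tested genes of the cumulus matrix list, Spp1 and Vcan rose and Has2, Tnfaip6, Ptgs2 and Bmp2 fell.

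Prostaglandin synthesis was lower at its inducible entry step. Ptgs2 (chr1:150100031-150108227, + strand), the inducible cyclooxygenase without which mice fail to ovulate normally, ranged from 1182 to 5819.6 CPM at 4 h (median 2588) and from 17.2 to 337 at 8 h (median 127). All 8 h follicles were below all 4 h follicles, with a change of -4.39 ± 0.43 (adjusted p = 5.28e-08), and the 1 h median was 11.7. Pla2g4a, the phospholipase that releases the substrate arachidonic acid, fell by 1.52 ± 0.22 (adjusted p = 5.44e-06). In all, 5 of 8 tested prostaglandin genes fell, the others being the synthases Ptges and Ptges3 and the receptor Ptger4, and only Akr1b3, an aldose reductase that can form prostaglandin F, rose (0.89 ± 0.20, adjusted p = 0.000665).

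**Figure D2:**
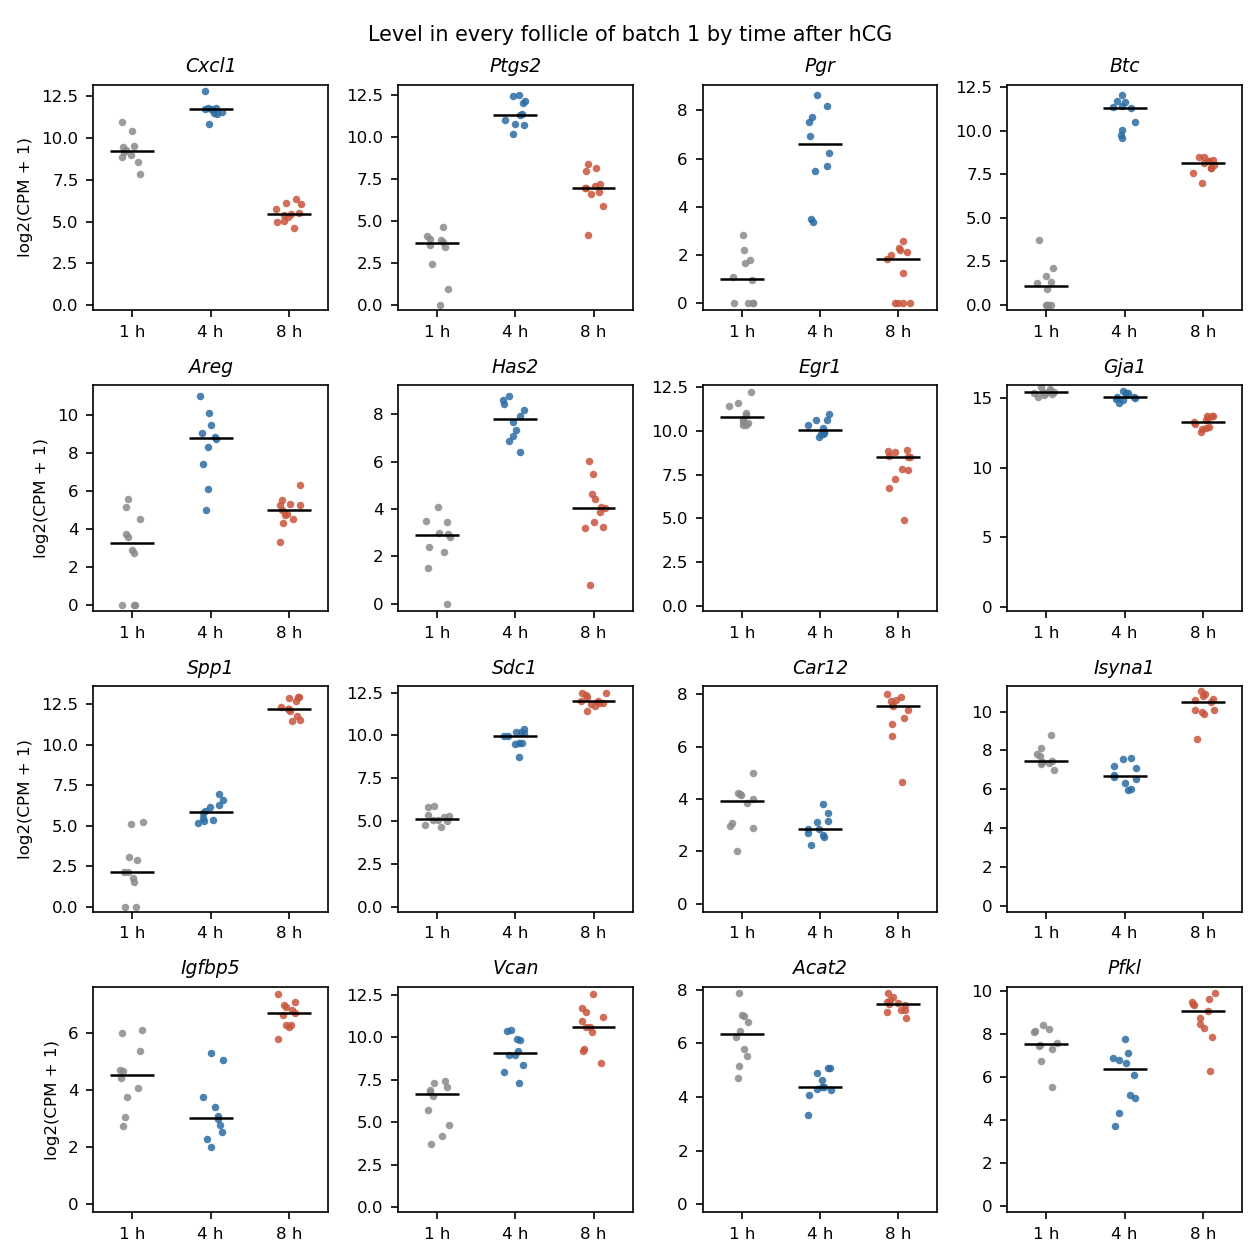
Points are single follicles of batch 1 at 1 h, 4 h and 8 h (10, 10 and 11), bars are medians, and the y axis is log2(CPM + 1). In the upper 8 panels the 8 h follicles lie lower than those at 4 h, with overlap only in Areg, and in the lower 8 they lie higher, with overlap in Vcan and Pfkl.

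The progesterone receptor Pgr (chr9:8899833-8968611, + strand), a transcription factor required for follicle rupture, was measured between 9.18 and 399 CPM at 4 h (median 97.9). At 8 h its highest follicle had 4.96 CPM, the median was 2.5 and some follicles were at 0, so every 8 h follicle was below every 4 h follicle. The change was -5.95 ± 0.72 (adjusted p = 8.94e-07), and the 1 h median was 1.02 CPM. Of 14 tested genes of its network, Runx2 and Mt1 rose and Pgr, Pparg, Areg and Cdkn1a fell. The shares were 14.3% and 28.6%, against 23.1% and 26.1% of all genes tested. Rises outnumbered falls without 8 h replicate 4, with the 31 libraries of batch 1 in the fit, and after thinning to the smallest library. Pparg, a nuclear receptor of the same network and of lipid metabolism, fell by 4.05 ± 0.37 (adjusted p = 1.34e-08) from a median of 126 to 6.38 CPM.

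Of the Runx factors, which take part in luteinization, Runx2 was called and Runx1 was not. Runx2 rose from a range of 6.42 to 36.5 CPM at 4 h to one of 47.7 to 168 at 8 h without overlap (2.24 ± 0.29, adjusted p = 1.23e-06), with a 1 h median of 0.457. Runx1 had medians of 225 and 270.4 CPM and was not called (-0.28 ± 0.29, adjusted p = 0.45). Among 15 tested luteinization transcription factors 5 rose (Runx2, Nr5a1, Id2, Id3 and Nfil3) and 4 fell (Pgr, Pparg, Sox4 and Foxp1), a split that turned to more falls than rises under DESeq2 and on the TPM scale. Nfil3, a basic leucine zipper repressor, was among the rises (1.27 ± 0.32, adjusted p = 0.00183).

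The immediate early genes, which a stimulus switches on without new protein synthesis, were lower at 8 h. Of 21 tested, 14 fell and 2 rose, with a median change of -1.39. Egr1, a zinc finger factor that hCG induces strongly in granulosa cells, was at 790.3 to 2015 CPM at 4 h (median 1061) and at 29.1 to 485 at 8 h (median 367). No follicles overlapped and the change was -2.04 ± 0.34 (adjusted p = 3.79e-05). Egr3 fell by 2.78 ± 0.21 (adjusted p = 2.32e-10) and the growth regulator Myc by 3.11 ± 0.27 (adjusted p = 4.39e-09), both without overlap. The rises were Fosl2, a Fos family partner of Jun, from a median of 116 to 287 CPM (1.31 ± 0.17, adjusted p = 7.27e-07), and Dusp1, a phosphatase that switches off MAP kinases (1.33 ± 0.27, adjusted p = 0.000219). Nr4a1, an orphan nuclear receptor, had 4217 to 13533 CPM at 1 h, 101 to 519 at 4 h and 13.5 to 1142 at 8 h, with medians of 179 at 4 h and 47.3 at 8 h. Its highest 8 h value came from 8 h replicate 4, and 9 of the other 10 follicles were at or below 69.4 CPM. It was not called with that library (-0.52 ± 0.66, adjusted p = 0.545) and fell by 2.10 without it (adjusted p = 2.16e-05).

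Single feedback genes of the pathways downstream of the receptor also shifted. Spry2, which dampens ERK signaling by receptor tyrosine kinases, fell from a median of 932 to 60.7 CPM (-3.87 ± 0.25, adjusted p = 4.65e-11), and Dusp6, an ERK phosphatase, from 80.1 to 25.3 (-1.66 ± 0.22, adjusted p = 1.12e-06). In both, all 8 h follicles were below all 4 h follicles. Of 9 tested ERK feedback genes 4 fell (Spry2, Dusp6, Spred1 and Errfi1) and 3 rose (Dusp1, Dusp4 and Spred2), with Spred2, a further ERK inhibitor, at 1.25 ± 0.26 (adjusted p = 0.000321). In the cyclic AMP feedback list 2 of 8 rose (Adcy3 and Per1) and 2 fell. Each is 25%, near the 23.1% and 26.1% of all genes tested. Rises and falls were equal in number in 21 of 32 alternative settings as well, and unequal in the rest. Crem, which includes a repressor induced by cyclic AMP, fell by 2.05 ± 0.31 (adjusted p = 1.14e-05) and the kinase gene Sik1 by 1.82 ± 0.37 (adjusted p = 0.000299). Adcy3, an adenylyl cyclase, rose by 1.28 ± 0.23 (adjusted p = 5.45e-05).

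Cxcl1 and Cxcl2 had steep falls in a list of chemokines and cytokines whose median change was 0.19. Cxcl1 (chr5:90891241-90893115, + strand), a chemokine that attracts neutrophils, lay between 1835 and 7065 CPM at 4 h (median 3344) and between 24.0 and 78.9 at 8 h (median 42.5), with 596 at 1 h. The lowest 4 h follicle was far above the highest 8 h follicle, and the change was -6.20 ± 0.26 (adjusted p = 3.94e-14). Cxcl2, which acts on the same receptor, had 24.0 to 203 CPM at 4 h and at most 2.88 at 8 h, where the median was 0. The fitted change of Cxcl2, -7.40 ± 0.54 (adjusted p = 3.85e-10), rests on counts near the floor at 8 h. Il6, a cytokine of the cumulus, was too low for the test, with 85 counts at 4 h and 39 at 8 h, a ratio at equal depth of 2.49 (95% interval 1.68 to 3.73, exact, counting error only). Of 12 tested chemokines, cytokines and their receptors 5 fell (Cxcl1, Cxcl2, Cxcl5, Cx3cl1 and Il1r1) and 4 rose (Osmr, Il6ra, Il4ra and Clcf1). Among the rises were Osmr at 1.6 ± 0.53 (adjusted p = 0.0172) and Il6ra at 1.52 ± 0.39 (adjusted p = 0.00249). The call of Osmr was lost in the 3 settings with limma on TPM (adjusted p = 0.0585 to 0.098). Without 8 h replicate 4 the list had more rises than falls.

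NF-kB is a transcription factor that drives such inflammatory genes and induces its own inhibitors. Of 14 tested genes of its feedback and targets 10 fell and 0 rose, with a median change of -0.88. Nfkbiz, an atypical inhibitor, went from a range of 21.3 to 51.9 CPM at 4 h to one of 1.92 to 16.5 at 8 h (-2.33 ± 0.27, adjusted p = 2.21e-07). Tnfaip3, which encodes the inhibitor A20, fell by 2.09 ± 0.26 (adjusted p = 4.72e-07). Neither gene's groups overlapped. Summed leukocyte markers had medians of 10.0 CPM at 4 h and 10.6 at 8 h.

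Of all lists with at least 8 tested genes, ribosome biogenesis had the highest share of falls. The list holds the nucleolar factors that transcribe, modify and assemble ribosomal RNA, and Myc, which activates many of them. Of 53 tested genes 48 fell (90.6%) and 0 rose, and the median change was -1.17. For 25 of the 53 every 8 h library was below every 4 h library, against 6.21% of all genes tested. Nop58 (chr1:59684971-59719044, + strand), a core protein of the particles that methylate ribosomal RNA, lay between 281 and 485 CPM at 4 h (median 384) and between 59.6 and 88.5 at 8 h (median 75.9). The groups were far apart and the change was -2.34 ± 0.12 (adjusted p = 8.73e-13). Its partner Nop56 fell by 2.16 ± 0.12 (adjusted p = 3.95e-12). Dkc1, the pseudouridine synthase of ribosomal RNA, fell by 2.26 ± 0.16 (adjusted p = 1.35e-10), and Ncl, nucleolin, by 1.36 ± 0.15 (adjusted p = 6.4e-08). The 5 members that were not called were Fbl, Rrs1, Utp20, Polr1a and Polr1c, of which Rrs1 had the one positive value (0.23). At 1 h the medians of Nop56, Dkc1 and Ncl, 66.1, 25.3 and 217 CPM, were close to those at 8 h (65.3, 23 and 269) and below those at 4 h (304, 103 and 686), whereas Nop58 at 1 h had 222. Nop56, Dkc1 and Ncl were picked from the list after their values were seen. In 32 alternative settings between 20 and 49 members fell and 0 rose. Of the cytosolic ribosomal proteins, the structural parts of the ribosome, 64 of 79 were not called, while 4 fell (Rpl3, Rpl4, Rpl5 and Rpl12) and 11 rose, with a median of 0.07.

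Genes of protein folding and amino acid supply were lower as well. Of 30 tested heat shock proteins and chaperonins 19 fell and 2 rose, with a median of -0.42. Dnaja2, a cochaperone of Hsp70, fell by 1.40 ± 0.12 (adjusted p = 1.74e-09) and Hsph1, which reloads Hsp70, by 1.24 ± 0.18 (adjusted p = 3.7e-06). The members that rose were Fkbp5, described below, and Hspa4l (1.29 ± 0.13, adjusted p = 1.49e-08). Of 27 tested targets of the stress factor ATF4 and tRNA synthetases 14 fell and 6 rose. Psat1, an enzyme of serine synthesis, fell by 1.85 ± 0.20 (adjusted p = 6.02e-08), and Slc7a1, a transporter of arginine and lysine, by 1.76 ± 0.24 (adjusted p = 2.61e-06), while Shmt2, a mitochondrial serine hydroxymethyltransferase, rose by 1.34 ± 0.26 (adjusted p = 0.00017). Genes of folding in the endoplasmic reticulum were split, with 5 rises and 6 falls among 31, and with 7 rises and 6 falls on the TPM scale. The shares among the 31, 16.1% and 19.4%, were below the 23.1% and 26.1% of all genes tested.

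Genes of cholesterol synthesis, which supplies the substrate of steroid hormones, rose. Of 25 tested genes 17 rose and 2 fell, with a median change of 0.69. For 8 of the 25 every 8 h follicle was above every 4 h follicle, against 3.4% of all genes tested. Acat2 (chr17:12942890-12960747, - strand), which makes acetoacetyl-CoA at the start of the pathway, lay between 9.03 and 33.2 CPM at 4 h (median 19.9) and between 124 and 235 at 8 h (median 174), a rise of 2.98 ± 0.18 (adjusted p = 9.6e-12). Lss, lanosterol synthase, which closes the sterol rings, rose from a median of 16.2 to 82.3 CPM without overlap (2.48 ± 0.17, adjusted p = 7.76e-11). Ggps1, which makes geranylgeranyl diphosphate on a side branch, fell (-0.32 ± 0.12, adjusted p = 0.0264). That small fall was lost when any 1 of 4 h replicates 1, 2, 4, 7 and 9 or 8 h replicates 1, 2, 4, 8, 9, 10 and 11 was left out (adjusted p = 0.0504 to 0.108). At 1 h the medians of Acat2 and Lss were 80.8 and 37.6 CPM, between those of 4 h and 8 h.

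Most promoters of these genes held a simple motif. The 250 bases before the start of a gene (RefSeq, GRCm38.p6) were present for 19 of the 25 tested genes, and 17 of them (89.5%) held CCAAT on either strand, against 40.3% of 5685 tested genes with a promoter and 37.5% of all 27025 promoters. The motif's letters are those of the CCAAT box, which the factor NF-Y binds and which often stands beside sterol response elements. A match is a description of letters only. The windows of Lss (chr10:76531355-76531604, + strand), Mvd (chr8:122443423-122443672, - strand), Mvk (chr5:114444019-114444268, + strand) and Nsdhl (chrX:72918271-72918520, + strand) are printed because they belong to the 4 largest rises in the list among genes whose window holds the motif, and Mvd, Mvk and Nsdhl were chosen after their values were seen. Mvk and Mvd act early in the pathway, on mevalonate, and Nsdhl late, on the sterol nucleus. Each is printed 5′ to 3′ in the direction of its gene. Capitals mark CCAAT or its reverse complement ATTGG, which occur at positions -62 in Lss, between -60 and -27 in Mvd, between -173 and -14 in Mvk and between -109 and -20 in Nsdhl, counted from the gene's start to the motif's first base.
Lss: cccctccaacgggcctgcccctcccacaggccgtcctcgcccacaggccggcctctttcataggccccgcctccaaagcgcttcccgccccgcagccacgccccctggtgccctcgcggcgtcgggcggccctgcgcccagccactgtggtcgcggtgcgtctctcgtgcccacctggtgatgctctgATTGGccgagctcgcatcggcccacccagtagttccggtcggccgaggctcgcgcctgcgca
Mvd: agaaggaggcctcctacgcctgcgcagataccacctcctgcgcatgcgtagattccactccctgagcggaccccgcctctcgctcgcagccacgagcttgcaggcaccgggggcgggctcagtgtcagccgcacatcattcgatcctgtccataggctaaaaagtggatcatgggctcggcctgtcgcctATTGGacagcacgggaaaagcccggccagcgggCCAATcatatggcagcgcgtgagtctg
Mvk: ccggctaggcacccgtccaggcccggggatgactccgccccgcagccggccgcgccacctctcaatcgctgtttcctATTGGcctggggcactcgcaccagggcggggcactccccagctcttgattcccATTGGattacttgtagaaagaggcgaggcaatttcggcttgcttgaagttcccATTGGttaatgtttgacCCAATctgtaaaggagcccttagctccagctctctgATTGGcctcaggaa
Nsdhl: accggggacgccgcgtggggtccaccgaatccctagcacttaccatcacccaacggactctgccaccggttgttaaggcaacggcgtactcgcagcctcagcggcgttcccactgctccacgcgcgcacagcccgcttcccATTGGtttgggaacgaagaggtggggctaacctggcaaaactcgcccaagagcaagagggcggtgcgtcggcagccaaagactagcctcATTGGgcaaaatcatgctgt
Mvd went from a median of 4.23 to 22.7 CPM (2.47 ± 0.24, adjusted p = 1.21e-08), Mvk from 2.80 to 16.2 (2.46 ± 0.30, adjusted p = 3.71e-07) and Nsdhl from 16.1 to 51.8 (1.66 ± 0.19, adjusted p = 1.75e-07), each without overlap. The core of a sterol response element, TCACCCC, was in 3 of the 19 windows (15.8%, against 5.3% of tested genes) and the E-box CACGTG in 5 (26.3%, against 10.4%). In the ribosome biogenesis list, 15 of 45 windows held CCAAT (33.3%), 1 held CACGTG (2.2%) and 22 held the cyclic AMP response site core TGACG (48.9%, against 32.7% of tested genes).

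**Figure D3:**
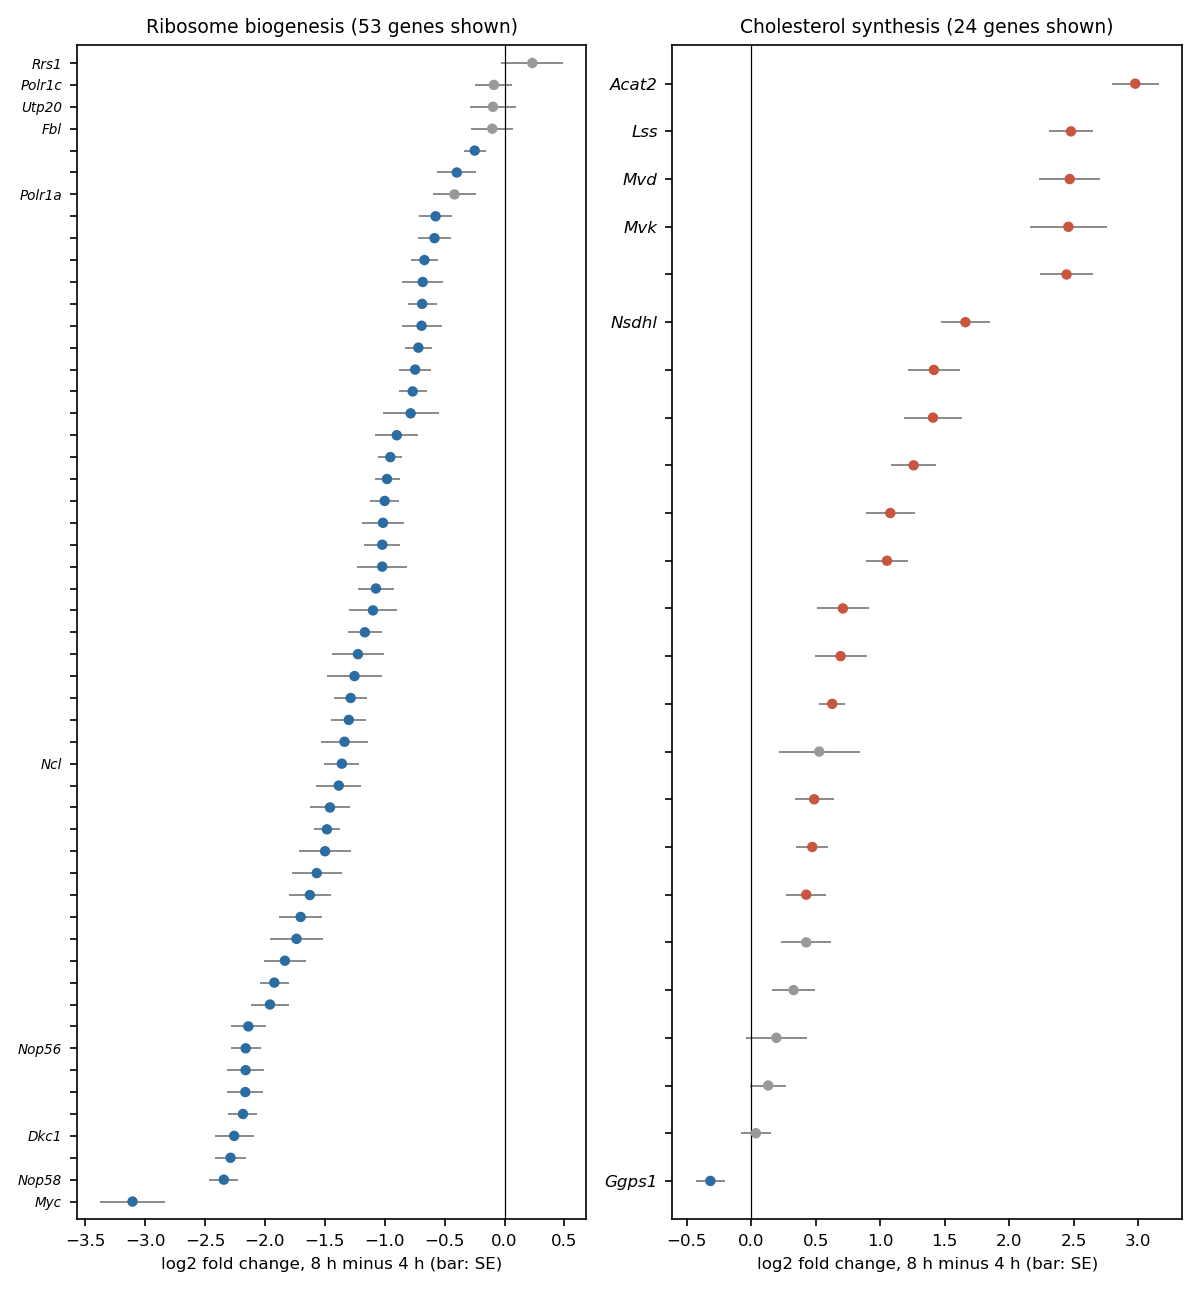
Log2 fold change (8 h minus 4 h, x axis) with its standard error for the tested genes of ribosome biogenesis (left, 53) and cholesterol synthesis (right, 25, of which 1 is not shown), with names for the genes described in the text, blue for called falls, red for called rises and grey for genes not called. On the left 48 genes lie below 0 as called falls, led by Myc at -3.11, and on the right 17 are called rises, led by Acat2 at 2.98.

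Uptake and handling of cholesterol rose in part, with 10 of 17 tested genes higher and 2 lower. Vldlr, a lipoprotein receptor, rose from a median of 93.2 to 399 CPM (1.94 ± 0.23, adjusted p = 2.93e-07), and Lipe, the lipase that frees stored cholesterol esters, rose by 2.06 ± 0.27 (adjusted p = 1.09e-06). Scarb1, the receptor that takes up cholesterol from high-density lipoprotein, fell by 1.09 ± 0.16 (adjusted p = 4.82e-06), although its median at 8 h, 852 CPM, was above the 465 of 1 h. Abca1, a cholesterol exporter, fell by 0.80 ± 0.30 (adjusted p = 0.0315), a call lost when any 1 of 4 h replicates 1, 3, 4 and 8 or 8 h replicates 1, 4 and 10 was left out (adjusted p = 0.0523 to 0.0738).

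Progesterone synthesis was mixed, with 7 rises and 4 falls among 18 tested genes. Star, which carries cholesterol into mitochondria and controls the rate of steroid synthesis, was at 305 to 2979 CPM at 4 h (median 1206) and at 16.6 to 1449 at 8 h (median 210.0). The groups overlapped widely and the change was -1.73 ± 0.59 (adjusted p = 0.0197). Without a filter on low counts it missed the threshold (adjusted p = 0.0529). Cyp11a1, the enzyme that makes pregnenolone from cholesterol, ranged from 111 to 1491 and from 64.1 to 1918 CPM, and Hsd3b1, which makes progesterone, from 1294 to 6135 and from 1449 to 7201. Neither was called (-0.64 ± 0.60, adjusted p = 0.4, and 0.29 ± 0.29, adjusted p = 0.428). The electron donors were split: Fdxr, the reductase that feeds electrons to mitochondrial P450 enzymes, rose without overlap from a median of 12.7 to 62.7 CPM (2.13 ± 0.21, adjusted p = 2.16e-08), while Cyb5a, cytochrome b5, fell without overlap from 640.4 to 124 (-2.09 ± 0.20, adjusted p = 1.56e-08). Prlr, the prolactin receptor through which the corpus luteum is maintained in mice, rose by 2.04 ± 0.43 (adjusted p = 0.000458).

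Of 17 tested follicular phase granulosa genes 8 fell and 1 rose, the rise being Gata4, a zinc finger transcription factor (0.94 ± 0.31, adjusted p = 0.0155). Lhcgr, the receptor on which hCG acts, had medians of 71.3, 12.1 and 5.45 CPM at 1 h, 4 h and 8 h and was not called between the last 2 (-0.85 ± 0.65, adjusted p = 0.293). Fshr, the receptor of follicle-stimulating hormone, was too low for the test, with 176 counts at 4 h and 59 at 8 h, a ratio of 3.40 (95% interval 2.52 to 4.65, exact, counting error only). Cyp19a1, the aromatase that makes estradiol, had medians of 25.8 and 28.8 CPM (-0.23 ± 0.37, adjusted p = 0.647), both far below the 566 of 1 h. Esr2, the granulosa estrogen receptor, fell by 1.59 ± 0.41 (adjusted p = 0.00279) and Hsd17b1, which makes estradiol from estrone, by 1.50 ± 0.45 (adjusted p = 0.00929). The call of Hsd17b1 was lost in the 3 settings with limma on TPM (adjusted p = 0.0539 to 0.091). Sult1e1, the sulfotransferase that inactivates estrogen, was 0 in all 1 h follicles, 176 to 15452 CPM at 4 h and 33.7 to 3581 at 8 h, a change of -2.56 ± 0.86 (adjusted p = 0.0175). On log2(TPM + 0.1), and on TPM without a filter, Sult1e1 missed the threshold with limma (adjusted p = 0.0574 and 0.0851). The spread of Sult1e1 within each time was among the widest of the genes described.

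Inhibins and activins are granulosa hormones of the same family as the BMPs, and most of this list fell, 12 of 23 tested genes against 3 that rose. Inhba, the activin subunit, was at 970.4 to 11893 CPM at 4 h (median 6649) and at 384 to 1796 at 8 h (median 1069.8), overlapping only through 4 h replicate 10, which had the lowest 4 h value. The change was -2.72 ± 0.36 (adjusted p = 2.56e-06). Inha, the inhibin subunit, fell by 0.62 ± 0.13 (adjusted p = 0.000272). Fst, follistatin, which binds activin, fell by 2.95 ± 0.34 (adjusted p = 2.8e-07) without overlap. The rises were Id2 and Id3, inhibitors of basic helix-loop-helix factors, and Smad3, a signal carrier of activin, with Id2 at 1.01 ± 0.29 (adjusted p = 0.00616) and Smad3 at 0.53 ± 0.11 (adjusted p = 0.000496).

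Before hCG, a peptide from granulosa cells and its receptor on them, Nppc and Npr2, supply the cyclic GMP that keeps the oocyte in meiotic arrest, and gap junctions carry it inward. Npr2 fell from a range of 20.0 to 52.6 CPM at 4 h to one of 2.20 to 10.9 at 8 h (-2.79 ± 0.23, adjusted p = 8.3e-10), and Nppc from a median of 13.0 to 2.65 (-2.35 ± 0.30, adjusted p = 7.33e-07). Gja1, which encodes connexin 43, the gap junction protein of granulosa cells, lay between 26376 and 46542 CPM at 4 h and between 6103 and 13811 at 8 h (-1.83 ± 0.15, adjusted p = 5.77e-10). None of these genes had overlapping groups. In the list, 4 of 8 tested genes fell, Inhba included, and Adcy3 rose.

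Genes of glycolysis and of the response to low oxygen rose, unevenly between follicles. Of 22 tested glycolysis genes 14 rose and 3 fell (median 0.86), and of 17 genes of the hypoxia response and angiogenesis 10 rose and 0 fell (median 0.72). Pfkl, the liver type of phosphofructokinase, ranged from 12.2 to 214 CPM at 4 h (median 84.1) and from 77.5 to 942 at 8 h (median 539), a rise of 2.63 ± 0.48 (adjusted p = 0.000125) with overlap. Hk1, hexokinase, rose without overlap (1.83 ± 0.25, adjusted p = 2.42e-06). The lactate exporter gene Slc16a3 rose by 1.79 ± 0.57 (adjusted p = 0.0125), while Slc16a1, the other main lactate carrier, fell by 1.65 ± 0.18 (adjusted p = 6.8e-08). Bnip3, a mitophagy receptor induced by low oxygen, went from a median of 48.9 to 319 CPM (2.70 ± 0.67, adjusted p = 0.00228), with a 1 h median of 362. P4ha2, a collagen prolyl hydroxylase, rose by 1.88 ± 0.37 (adjusted p = 0.000202).

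Genes of the response to glucocorticoids rose as well, with 7 of 9 tested genes higher and 1 lower, and a median change of 1.89. Fkbp5, a cochaperone that glucocorticoid and progesterone receptors induce, was at 0 to 13.3 CPM at 4 h (median 8.11) and at 27.0 to 141 at 8 h (median 65.6). Its groups did not overlap (3.12 ± 0.28, adjusted p = 3.99e-09). Tsc22d3, which encodes the glucocorticoid-induced leucine zipper, went from at most 7.41 CPM at 4 h to 4.50 to 244 at 8 h (3.48 ± 0.66, adjusted p = 0.000191), with a 1 h median of 42.8 against 38.9 at 8 h. The metallothioneins Mt1 and Mt2, which bind zinc, rose by 1.89 ± 0.54 (adjusted p = 0.00613) and 2.05 ± 0.65 (adjusted p = 0.0121). The receptor gene Nr3c1 fell by 0.69 ± 0.22 (adjusted p = 0.0132), a call lost without 4 h replicate 7 (adjusted p = 0.0537). With limma on TPM, in 3 settings, Mt2 had an adjusted p of 0.0658 to 0.111 and Nr3c1 one of 0.127 to 0.202.

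The follicles at 8 h were not alike in these last lists. As the median level of a list's members relative to each gene's mean over the 21 libraries (log2 CPM), glycolysis ran from -1.04 in 8 h replicate 4 to 1.27 in 8 h replicate 5, and from -0.83 to 0.34 at 4 h. In the glucocorticoid list, 8 h replicates 1, 3, 4 and 7 lay between -0.49 and 0.03 and the other 7 between 0.96 and 2.09, while the 4 h follicles lay between -1.36 and 0.07. By contrast, ribosome biogenesis lay between 0.25 and 0.94 at 4 h and between -0.83 and -0.16 at 8 h, the immediate early genes between 0.37 and 0.92 and between -1.10 and -0.08, and cholesterol synthesis between -0.99 and 0.15 and between 0.19 and 0.77. No follicle crossed over in those. Replicate 4 at 8 h therefore had the 8 h levels of ribosome biogenesis (-0.58) and cholesterol synthesis (0.76) beside the lowest glycolysis level of all. In that follicle Pfkl was at 77.5, Bnip3 at 13.6, Car12 at 24.2, Star at 16.6 and Egr1 at 29.1 CPM, each the lowest 8 h value, and Igfbp4 at 1066 was the highest. Its theca and stroma markers were the lowest of the 8 h libraries as well (88.7 CPM), followed by 8 h replicate 7 (130.1). Without that follicle and 4 h replicate 10, glycolysis had 15 rises and 2 falls, the hypoxia list 11 and 0, the glucocorticoid list 7 and 1, cholesterol synthesis 17 and 1, and ribosome biogenesis 0 and 47. What sets these follicles apart was not tested.

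**Figure D4:**
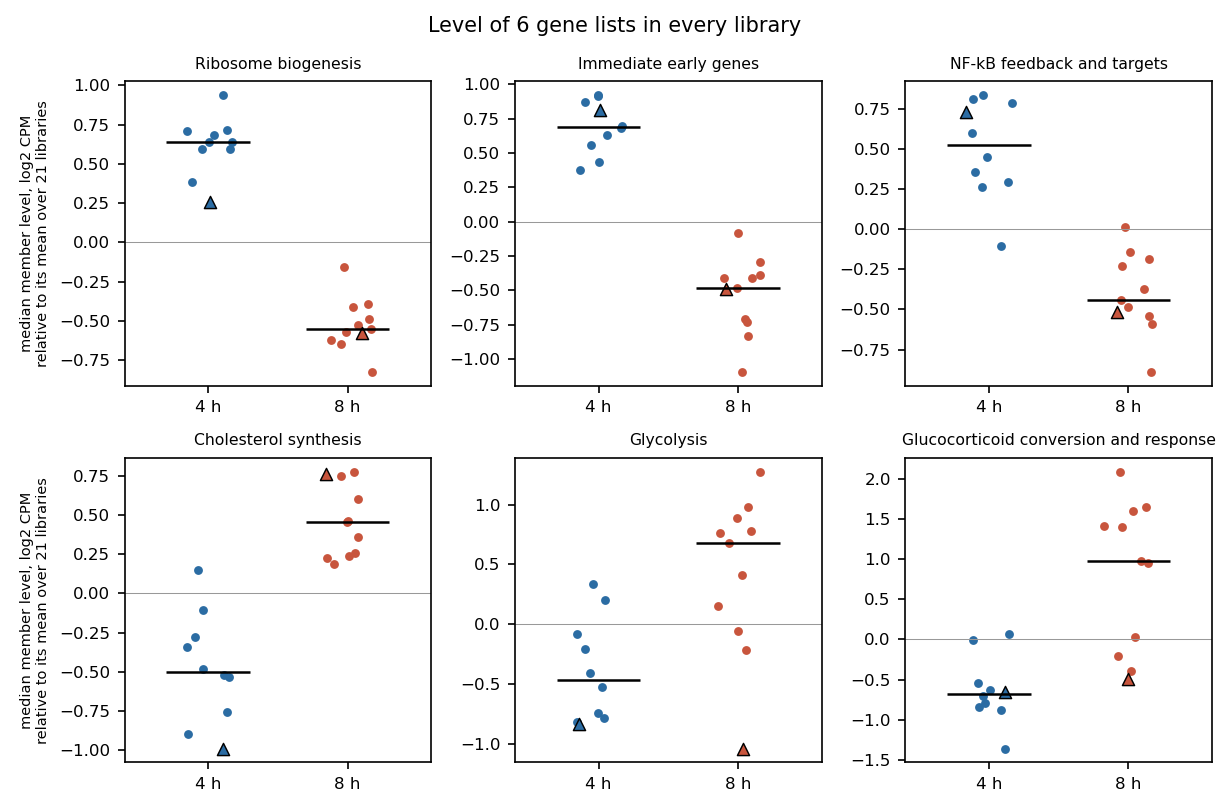
Each point is a library, and the y axis is the median over a list's tested members of log2 CPM relative to the gene's mean over the 21 libraries, with triangles for 4 h replicate 10 and 8 h replicate 4 and bars for the median of each time. The times separate fully for ribosome biogenesis, immediate early genes and cholesterol synthesis, and overlap for glycolysis and the glucocorticoid list. 8 h replicate 4 lies among the 4 h follicles in the glucocorticoid list and below all of them in glycolysis.

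The cell cycle was lower in its mitotic part. Of 30 tested genes of mitosis and the spindle 17 fell and 1 rose, with a median of -0.59. Cdk1, the kinase that drives entry into mitosis, went from a median of 28.3 to 14.9 CPM with overlap (-1.27 ± 0.28, adjusted p = 0.000555). Cks2, a small partner of that kinase, was the rise (0.80 ± 0.23, adjusted p = 0.00549). Ccnd2, the granulosa cyclin, fell by 1.33 ± 0.28 (adjusted p = 0.000487), while Ccnd3 rose by 2.01 ± 0.22 without overlap (adjusted p = 1.07e-07) and Cdkn2d, a CDK inhibitor, by 2.43 ± 0.35 (adjusted p = 3.35e-06). Genes of DNA replication had 7 rises and 2 falls (Mcm6 and Rrm2) among 26. The share of rises, 26.9%, was near the 23.1% of all genes tested, and that of falls was 7.69% against 26.1%. Rpa1, which coats single-stranded DNA, rose by 1.39 ± 0.16 (adjusted p = 1.75e-07) and Mcm6, a subunit of the replicative helicase, fell by 1.62 ± 0.27 (adjusted p = 2.71e-05).

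F3, tissue factor, which starts blood coagulation, went from a range of 653 to 3346 CPM at 4 h to one of 18.5 to 196 at 8 h (-3.91 ± 0.33, adjusted p = 3.99e-09). Of 16 tested plasminogen activators, serpins and coagulation factors 8 fell and 2 rose, the rises being Plat, tissue plasminogen activator (1.21 ± 0.31, adjusted p = 0.00248), and Serpinh1, the collagen chaperone (1.38 ± 0.15, adjusted p = 5.72e-08). Timp1, an inhibitor of matrix metalloproteases, rose by 1.43 ± 0.40 (adjusted p = 0.00561) and Timp3 fell by 1.66 ± 0.46 (adjusted p = 0.00517). Among 15 tested ADAMTS, ADAM and matrix metalloprotease genes 7 rose and 4 fell. Adamts5, an aggrecanase that can also cleave versican, fell by 2.13 ± 0.30 (adjusted p = 2.47e-06).

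Contractile and adhesion genes changed in both directions. Of 37 tested cytoskeletal genes 14 fell and 7 rose. Acta2, smooth muscle actin, lay between 427 and 1509.5 CPM at 4 h and between 59.6 and 409.6 at 8 h (-1.80 ± 0.29, adjusted p = 2.33e-05). Tagln, which binds actin, fell by 3.82 ± 0.33 (adjusted p = 2.17e-09), and Ctgf, a matrix protein gene activated by YAP, by 4.49 ± 0.54 (adjusted p = 6.96e-07). All 3 fell without overlap. Of 23 tested integrins, cadherins, claudins and other adhesion genes 4 rose (17.4%) and 6 fell (26.1%). The shares of all genes tested were 23.1% and 26.1%, and the majority turned in 7 of 32 alternative settings. Vcam1, a cell adhesion molecule, fell by 2.85 ± 0.33 (adjusted p = 3.1e-07). Syndecan 1, from Sdc1, a heparan sulfate proteoglycan of the cell surface, rose from a range of 423 to 1327 CPM at 4 h to one of 2781 to 5761 at 8 h (2.18 ± 0.17, adjusted p = 5.56e-10), and was at a median of 34 at 1 h. Sdc4 rose by 0.89 ± 0.24 (adjusted p = 0.00376), and Lox, which crosslinks collagen, by 2.18 ± 0.35 (adjusted p = 2.32e-05). Of 32 tested collagens, laminins and other matrix genes 8 rose (25%, near the 23.1% of all genes tested) and 2 fell (6.25%).

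Binding proteins of insulin-like growth factors were among the larger rises. Igfbp5, which binds insulin-like growth factors, went from a median of 7.20 to 104 CPM without overlap (3.30 ± 0.37, adjusted p = 2.03e-07). Igfbp4 rose by 3.25 ± 0.55 (adjusted p = 4.87e-05), and by 2.66 without 8 h replicate 4, its highest follicle. Their receptor gene Igf1r fell by 1.16 ± 0.14 (adjusted p = 2.33e-07). Of 11 tested genes of this axis 5 rose and 1 fell. In the WNT list 4 of 13 tested genes rose and 5 fell, and this majority turned in 8 of 32 alternative settings. There Fzd1, a receptor, rose by 2.12 ± 0.24 (adjusted p = 1.05e-07) and Sfrp2, a secreted antagonist, by 2.05 ± 0.62 (adjusted p = 0.0095), or 3.00 without 4 h replicate 4. The nuclear partners of beta-catenin fell, Tcf7 by 2.33 ± 0.26 (adjusted p = 9.46e-08) and Tcf7l2 by 1.85 ± 0.33 (adjusted p = 9.03e-05).

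The other largest rises were genes of varied function. Car12 (chr9:66713686-66766845, + strand), a carbonic anhydrase of the cell surface, lay between 3.76 and 13.0 CPM at 4 h and between 24.2 and 256 at 8 h (4.60 ± 0.34, adjusted p = 5.09e-10). Isyna1, which makes inositol, rose from a median of 100.5 to 1437 CPM (3.54 ± 0.28, adjusted p = 9.35e-10), and Scd1, a fatty acid desaturase, from 44.9 to 512 (3.43 ± 0.37, adjusted p = 1.09e-07). These 3 had no overlap between the times. Prss35, which encodes a protein of the serine protease family found in the ovary, rose by 3.41 ± 0.32 (adjusted p = 1.85e-08) and Tmem86a, a lysoplasmalogenase, by 3.30 ± 0.36 (adjusted p = 1.44e-07). Dhrs3, a retinal reductase, rose by 4.16 ± 0.60 (adjusted p = 7.51e-06), yet its 1 h median, 47.5 CPM, was above that of 8 h, 27.9, with 0.740 at 4 h. Cited4, a transcriptional coactivator, rose by 3.63 ± 0.51 (adjusted p = 4.84e-06) and Slc25a30, a mitochondrial carrier, by 3.34 ± 0.46 (adjusted p = 4.43e-06), both with overlap. The remaining 2 of the 12 largest rises were the multicopy genes Speer4a and Speer4b, whose reads cannot be assigned to a copy with confidence.

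The other largest falls included cell surface and nuclear genes. Jag1, a Notch ligand, went from a range of 59.9 to 824 CPM at 4 h to one of 5.14 to 22.3 at 8 h (-4.67 ± 0.48, adjusted p = 7.76e-08). Flrt3, an adhesion molecule, went from 29.1 to 229 CPM to at most 4.91 (-5.44 ± 0.41, adjusted p = 5.09e-10). Lrrtm3 fell by 4.77 ± 0.37 (adjusted p = 6.39e-10), Pxdc1 by 4.95 ± 0.41 (adjusted p = 2.96e-09) and Ifi202b, an interferon-inducible gene with close relatives, by 5.59 ± 0.55 (adjusted p = 4.97e-08). Their groups did not overlap. Slc38a5, a glutamine transporter, fell by 4.64 ± 0.69 (adjusted p = 1.11e-05), and by 3.43 without 4 h replicate 3, which alone held 1007 CPM. Prdm1, a transcriptional repressor, fell by 4.35 ± 0.65 (adjusted p = 1.25e-05) with overlap.

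Organelle lists had small median changes. Of 75 tested nuclear genes of oxidative phosphorylation 25 rose and 5 fell (median 0.19). Of 11 mitochondrially encoded genes mt-Co2 of complex IV rose, a call lost without any 1 of 7 libraries (4 h replicates 3, 4, 5, 6 and 10 and 8 h replicates 3 and 7, adjusted p = 0.0505 to 0.0750). Also, mt-Cytb of complex III rose (0.40 ± 0.08, adjusted p = 0.000309), and mt-Nd2 of complex I fell (-0.65 ± 0.15, adjusted p = 0.000681). In the lysosomal list 16 of 40 rose and 8 fell. Atp6v1a, a subunit of the lysosomal proton pump, rose by 1.28 ± 0.13 (adjusted p = 2.97e-08) without overlap. Proteasome genes rose in 12 of 35 and fell in 6. In the survival and death list 9 of 18 rose and 6 fell, with Bcl2l1, an inhibitor of apoptosis, at 1.82 ± 0.26 (adjusted p = 3.25e-06) and Tnfrsf12a, the receptor of the cytokine TWEAK, at -2.20 ± 0.14 (adjusted p = 1.09e-11).

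**Figure D5:**
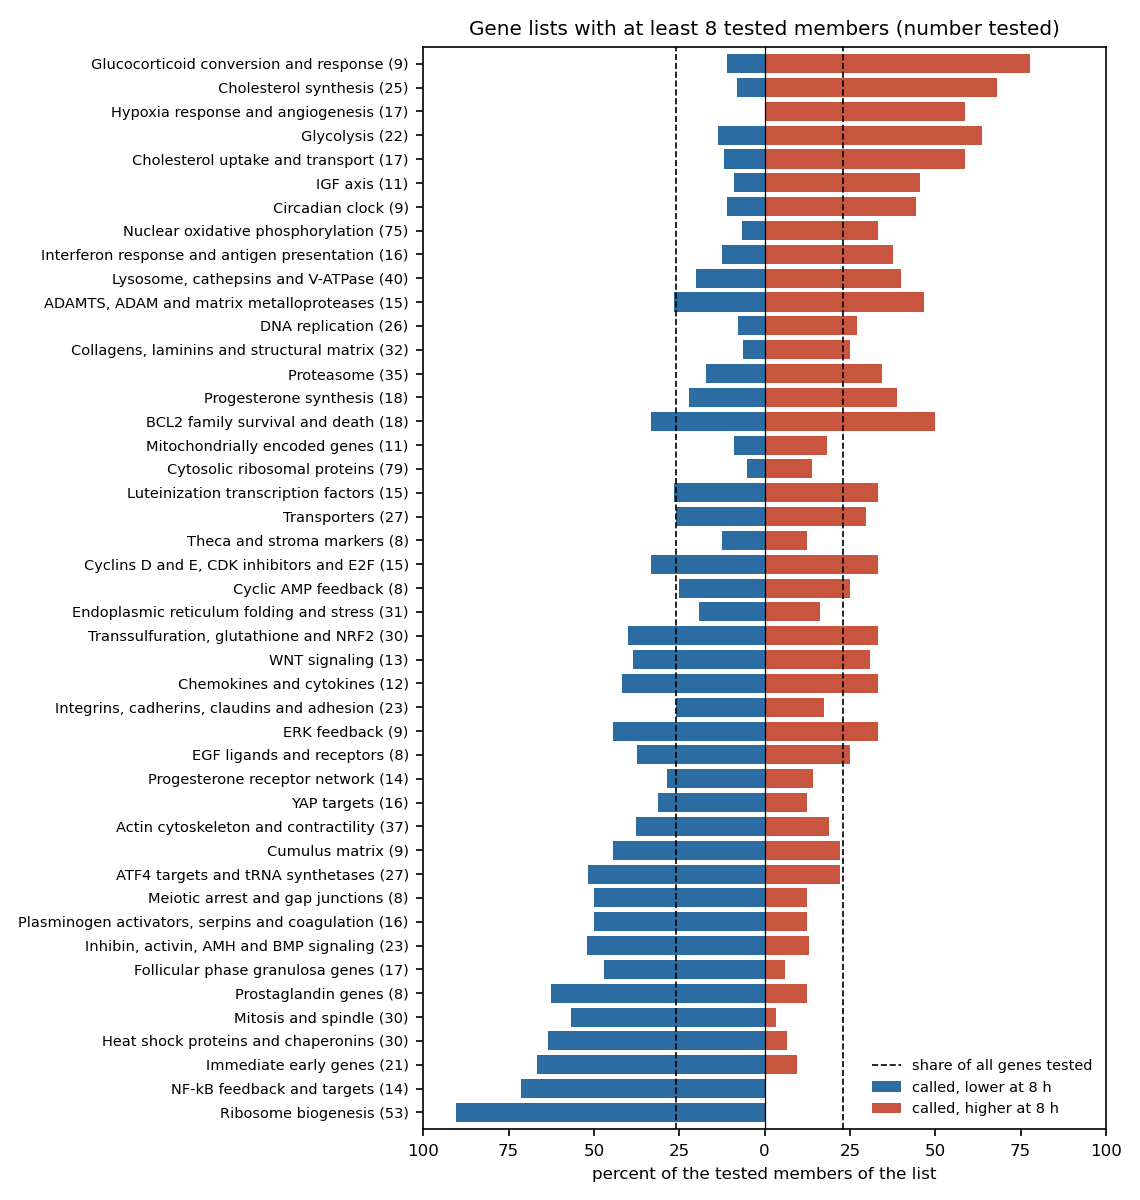
Bars give the percent of each list's tested members called lower (left, blue) or higher (right, red) at 8 h, for lists with at least 8 tested members, and dashed lines give the same shares over all 7636 genes tested (26.1% and 23.1%). Ribosome biogenesis has the largest share of falls, 90.6%, and the glucocorticoid list the largest share of rises, 77.8% of 9 genes.

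Among the clock genes, 4 of 9 tested rose and 1 fell. Cry1, a repressor of the clock, fell by 1.44 ± 0.14 without overlap (adjusted p = 1.03e-08). Rora, a nuclear receptor that activates clock genes, rose by 2.01 ± 0.37 (adjusted p = 0.0001). In the list of sulfur metabolism, glutathione and NRF2 targets 12 of 30 fell and 10 rose. Gpx3, a secreted glutathione peroxidase, fell by 2.26 ± 0.46 (adjusted p = 0.000328), with medians of 2272, 146 and 23.4 CPM at 1 h, 4 h and 8 h. Ggct, a gamma-glutamylcyclotransferase, fell by 3.73 ± 0.48 (adjusted p = 1.58e-06), or by 3.03 without 4 h replicate 4, its highest follicle. Txnip, an inhibitor of thioredoxin, rose by 2.10 ± 0.33 (adjusted p = 1.23e-05). Of 16 tested interferon response genes 6 rose and 2 fell, with Stat2 at 1.84 ± 0.36 (adjusted p = 0.000155).

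Spread between follicles was of the same order at both times. The biological coefficient of variation was 33.4% among the 4 h follicles and 28.6% among the 8 h follicles when each time was fitted alone, and 32.9% and 26.9% without 4 h replicate 10 and 8 h replicate 4. Edn2, an endothelin of the ovulating follicle, was too low for the test, with 34 counts in 9 of the 4 h libraries and 1 count in all 8 h libraries, a ratio of 38.8 (95% interval 6.51 to 1577, exact, counting error only). Cebpb, a luteinization factor, had 6 and 16 counts, and its ratio's interval (0.137 to 1.15, 4 h over 8 h) held equality.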

How the data were processed

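Single follicles gave polyadenylated RNA that was amplified with Smart-Seq2 and made into paired-end Nextera XT libraries, per the labels' protocols. These libraries carry no strand, so overlapping and antisense genes cannot be told apart. HISAT2, GRCm38, Partek and DESeq2 are named in the submitters' processing notes, with no versions. The authors deposited whole-number counts for 25147 genes, adjusted between batches with ComBat-seq per the file's name (settings not given in the sources used here), and TPM made from them. The adjusted counts are not raw reads, and the adjustment may change their spread. Left out were 10 columns whose names match no sample in the labels. The 21 libraries of batch 1 at 4 h and 8 h were selected by their labels.

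Genes passing filterByExpr (7636) were tested with edgeR 4.0.16 (R 4.3.3): TMM factors, a robust quasi-likelihood fit, an F test and Benjamini-Hochberg adjustment, called at an adjusted p under 0.05. The standard error is the size of the log2 fold change divided by the square root of F. Log2 CPM used a prior count of 2. Library measures had two-sided permutation tests with 100000 resamples, adjusted over 11 measures. On simulated counts for 8 h against 4 h (7522 genes) the test called 85.9% of 99 genes changed 2-fold, 100% of 96 changed 4-fold and 10 of 7327 unchanged. The simulation gave all genes the same spread and changed few genes, none of them weakly expressed. These rates therefore need not hold for the real libraries. No pair of libraries agreed within sampling noise (100 pairs, lowest chi-square per degree of freedom 8.71).

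Named genes are the 12 largest rises and 12 largest falls whose mean log2 CPM reaches 3, up to 2 rises and 2 falls of each list, and 30 genes named whatever their result. Names of provisional gene models, clones included, were left out of the largest changes (106 called genes). The clones were not in the rule's wording. Other genes named were picked from the lists after their values were seen. The members and lists were chosen with earlier results of these data known. Alternatives were other scaling (RLE), no filter, DESeq2 1.42.0, more libraries in the fit, a replicate block, thinning, leaving out libraries, and limma 3.58.1 on log2 TPM. Gene positions came from GENCODE M21 (GRCm38), by symbol, for 7082 of the genes tested. Intervals of count ratios cover counting error only. Some genes are not reported here.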

Additional observations from a re-analysis of the deposited data

Results flagged for a closer look

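Among the 10 follicles at 4 h, 26 of 193 gene levels and library measures had a highest or lowest follicle that stood apart from the others by Dixon's test. Normally distributed values would give about 1 in 20 by chance, a rate that need not hold for low counts. Of the 26, 20 came from 4 h replicate 10, the library with the lowest total count (241442). That library had the lowest CPM of Akr1b3 (31.9), Hsd17b1 (3.99), Igf1r (43.9), Inhba (970.4), Nap1l5 (47.9), Ndufs8 (16), Rpl5 (16) and Sdc1 (423), and 0 CPM of Bad, Erbb2, Fdxr, Fkbp5 and Mcm2. At that total, values near 0 rest on few counts and carry a large counting error, and 0 CPM does not show absence. The same library had the highest CPM of Cxcl1 (7065), Vcam1 (4041), Col4a5 (20.0) and mt-Nd2 (2368). It also had the fewest genes with a count (8964) and the highest sums of smooth muscle markers (1669 CPM) and endothelial markers (149 CPM). The other follicles that stood apart were 4 h replicate 8 for Bcl2l1 (33.2 CPM, highest) and surface epithelium markers (61.6 CPM, highest), 4 h replicate 4 for Ggct (179 CPM, highest), 4 h replicate 3 for Slc38a5 (1007 CPM, highest), 4 h replicate 2 for Nfil3 (1.03 CPM, lowest) and 4 h replicate 7 for the share of counts in its 100 most abundant genes (53.9%, highest). The 11 follicles at 8 h were not tested in this way.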

How the results depend on the processing

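Of 174 called genes named by the rule, 155 kept their direction and their call in all 32 alternative settings, 19 lost the call in at least 1 and 0 changed direction. Called genes numbered 3758, and 1190 (590 higher and 600 lower at 8 h) after thinning all libraries to the smallest, with 2475 genes tested instead of 7636. Leaving out 1 library at a time gave 3507 to 3814 called, 1651 to 1919 of them higher and 1719 to 2041 lower. The numbers of the replicates did not pair the follicles (10 pairs, r from -0.20 to 0.23, 4 of them over 0.1, 3 best with their own number), and with the replicate number as a block 3470 genes were called, 1643 higher and 1827 lower, without Mt2, Vcan and Sult1e1. DESeq2 called 4568. Nr4a1, not called, was called with the block (-1.65) and with DESeq2 (-1.92). Some list medians changed sign. The cumulus matrix median was -0.85 without a filter and -0.85 with DESeq2. The prostaglandin median was 0.014 with DESeq2 and 0.010 on TPM without a filter. The EGF ligand median was -0.0502 with 46 libraries, -3.0 thinned, -0.71 on log2(TPM + 1) and -0.91 on log2(TPM + 0.1). The chemokine median was -0.36, -1.17, -0.45 and -0.47 in the same order. The mitochondrially encoded median was 0.16 on log2(TPM + 0.1). Thinned medians were 0.52 for luteinization factors, 0.093 for inhibins and BMPs, -0.0722 for the IGF axis, -0.11 for DNA replication, 0.26 for adhesion and 0.51 for transporters. Cyp19a1, not called, ranged from -0.338 to 0.0540 with 1 library left out, the latter without 4 h replicate 4. Thinning and the filter change which genes are tested, and the cause of the other changes was not tested. Depth limited the oocyte, endothelial and leukocyte markers, most of which were too low to test.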

Other observations

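Of 27 tested transporters 8 rose (29.6%) and 7 fell (25.9%), shares near the 23.1% and 26.1% of all genes tested, and the majority turned in 3 of 32 alternative settings. Tfrc, the transferrin receptor, which brings iron into cells, and Slc6a9, a glycine transporter, rose by 1.03 and 1.15 on the log2 scale. Slc40a1, ferroportin, which exports iron, fell by 1.40, and the amino acid carriers Slc1a4 and Slc1a5 fell by 1.2 and 0.63. Among targets and partners of YAP, a transcriptional coactivator that responds to tension, 5 of 16 tested genes fell (Ctgf, F3, Wwtr1, Tead1 and Crim1) and 2 rose (Axl and Tead2). Crim1 fell by 1.83 and Axl, a receptor tyrosine kinase, rose by 1.81. These genes were called by edgeR's quasi-likelihood test and were partly picked after their values were seen.

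A multicopy gene family stood out among the rises. The table holds 21 names of the Speer family and of clones grouped with it, whose sequences were not compared here. All 13 that could be tested were higher at 8 h, by 3.25 to 4.28 on the log2 scale. The summed level of the 21 names was 15.7 to 406 CPM at 1 h (median 78.3), 2.92 to 763 at 4 h (median 236) and 1058 to 6550 at 8 h (median 3885). The lowest 8 h follicle was above the highest 4 h follicle, and time and plate are the same split here as well. The copies may share sequence, so a level is not assigned to a single member and the 13 rises are not 13 separate results. The group was put together after its values were seen, so its separation is a description and no test.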
